A study of Mus musculus with 6 samples.

Results

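The genes followed here encode enzymes that set or erase DNA methylation and the core of Polycomb repressive complex 2 (PRC2). They are Dnmt1, Dnmt3a, Dnmt3b, Uhrf1, Tet1, Tet2, Tet3, Ezh2, Eed and Suz12, that is 10 of the 19505 genes named on the array, chosen by symbol, and each has 1 probe set. They were measured in 3 lines labelled as melanocytes or melanoma. Dnmt1, Uhrf1, Eed and Suz12 were higher in both lines labelled with mutant Kit than in the vector line. Tet2, Tet3 and Ezh2 were above background in all 3 lines and did not pass the test in any comparison. Dnmt3a, Dnmt3b and Tet1 were at background in all 3 lines.

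Expression was measured on 6 Affymetrix Clariom S mouse arrays, 2 for each line. All 3 lines are titled melan_a, the name of a line of immortalized mouse melanocytes, are given as C57BL/6J and were grown untreated in RPMI with 10% serum. For mVec the labels give melanocytes transduced with a control vector. For mKitK641E(T), here T, and mKitK641E(PT), here PT, they give melanoma transformed by Kit with the substitution K641E. No label names the vector's promoter or says whether a line is 1 clone. K641E is known to activate Kit, the receptor for stem cell factor. The T arrays are titled C3# and the PT arrays hi exp, and no label explains these titles or the letters T and PT. Each group is 1 line, and nothing says that its 2 arrays came from separate cultures, so p-values measure only the spread between these arrays.

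Methyl groups on cytosines of CG dinucleotides are copied to the new strand after replication by Dnmt1, which Uhrf1 brings to half-methylated DNA. Dnmt3a and Dnmt3b place new marks, and the Tet enzymes oxidize methylcytosine as a first step of its removal. In PRC2, the catalytic subunit Ezh2 or its relative Ezh1 methylates histone H3 at lysine 27, and neither works without Eed, which reads that mark, and Suz12, the scaffold. PRC2 keeps developmental genes silent, and EZH2 is mutated or overexpressed in some melanomas. Dnmt1 and Uhrf1, like many genes of DNA replication, are known targets of E2F transcription factors in dividing cells.

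An array value is a log2 level, and it was read against a background limit, the 95th percentile of the 5222 negative-control probe sets of its array (8.74 to 9.16). A group is above background when both its arrays exceed their limit and at background when neither does. A fold against a group at background is given as "at least", with the limit in place of the level, and no fold is given when both groups are at background. Between 29.0% and 32.6% of gene probe sets were above the limit per array. Differences are limma estimates ± SE, called at an adjusted p under 0.05 over all 22206 gene probe sets. In bulk RNA, fewer cells of a type and less RNA per cell cannot be told apart.

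The labels had little backing in the marker genes. Of 12 melanocyte markers, 0 were above background in mVec and PT and 1, Mitf, in T, while Tyr, Tyrp1, Dct, Pmel, Mlana and Sox10 were at background in all 3 lines. Kit itself was at background on all 6 arrays (mean levels mVec 4.82, T 4.86 and PT 4.19), and so gives no check of the labels. Of 9 fibroblast markers, 6 were above background in mVec (mean log2 level of the list 11.6 on both arrays), 3 in T (7.20 to 7.27) and 1 or 2 per array in PT (6.49 to 6.70). In each Kit line 7 were called lower than in mVec and 1, Col1a2, higher (log2 difference 4.16 in T and 4.15 in PT). Keratinocyte, leukocyte and Schwann cell markers were at background on every array, and 1 endothelial marker was above it in mVec. Of the 12 genes listed for RNA quality and handling, 3 were called higher and 6 lower than in mVec in each Kit line. Fos, Egr1 and Jun were among the lower, and the higher were Atf3, Hprt and Tbp. The log2 differences of the list ran from −6.49 to 4.45 in T and from −7.14 to 4.39 in PT. The part of these differences in the results that follow was not tested.

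Promoter sequence was searched because 4 of the 10 genes were higher in both Kit lines, beside many genes of the cell cycle. Over all probe sets 16.9% were called higher in T and 17.9% in PT, and the share higher in both was not counted. The motif was the E2F-type word TTCCCGC or TTCGCGC or TTGCCGC or TTGGCGC on either strand, in the 250 bases before each transcription start in RefSeq (GRCm38.p6). Starts of Dnmt1, Uhrf1 and Suz12 held it, against 9.01% of 27025 genes and 7.89% of 32851 starts. Each search word contains a CG, and these shares were not matched for CG content, so they do not show enrichment. None of the starts of Eed, Ezh2, Dnmt3a, Dnmt3b, Tet1, Tet2 or Tet3 held it in that window. The stretches around each match are shown with the motif in capitals, followed by the last bases before the starts of Ezh2 and Eed, which have no match there.
Dnmt1 start 3, first match, chr9:20952825-20952853, minus strand: ggtttccgcgcGCGCGAAaaagccggggt
Dnmt1 start 3, second match, chr9:20952764-20952792, minus strand: gcaagatgccaGCGCGAAcagctccagcc
Uhrf1 start 1, chr17:56303278-56303306, plus strand: tgctttctcgcTTCCCGCcacagcgccag
Uhrf1 start 2, chr17:56304118-56304146, plus strand: ccgagtcgggtTTCGCGCgcccaggcgtc
Suz12, chr11:79992877-79992905, plus strand: gacccctcattTTCCCGCgaattcagttc
Ezh2, chr6:47595031-47595059, minus strand: caaataaaagcgatggcgattgggttgct
Eed, chr7:89980977-89981005, minus strand: tccaggccacagactttcgttcgtttgca

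All 7 stretches run 5′ to 3′ on the gene's own strand. The matches of Dnmt1 begin 219 and 158 bases before start 3, those of Uhrf1 48 bases before start 1 and 184 before start 2, and that of Suz12 218 bases before its start. Dnmt1 start 1 and start 2 had no match. In the first 50 bases of the transcripts, outside the window, TTGGCGC stood at base 5 of Ezh2 and at base 35 from Dnmt1 start 3, and no other member start had a match. The member windows held between 2 CG dinucleotides (Dnmt1 start 1) and 51 (Tet2), against a median of 6 over all starts. A match is a description of the letters, and binding was not measured.

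The comparison of each Kit line with mVec asks which of these genes differ between a line labelled with mutant Kit and the line labelled with the vector. Both comparisons use the same mVec arrays. The lines also differ in fibroblast markers, and Kit and other differences between the lines cannot be told apart. In T, 4 of the 10 genes were called higher, beside 16.9% of all probe sets, and 1 lower, beside 15.5%. In PT, 5 were called higher, beside 17.9% of all probe sets, and 1 lower, beside 18.0%. The median difference of the 10 genes was 0.15 in T and 0.68 in PT, against 0.01 and 0.08 over all probe sets. Centring each array on its median raised all differences by 0.18 in T and by 0.19 in PT. It moved the share of calls that were higher from 52.3% to 62.3% in T and from 49.9% to 60.3% in PT. The calls of Dnmt1, Uhrf1, Eed and Suz12 against mVec held in all 15 alternative analyses in both lines, these scalings and the omission of each array included.

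**Figure D1:**
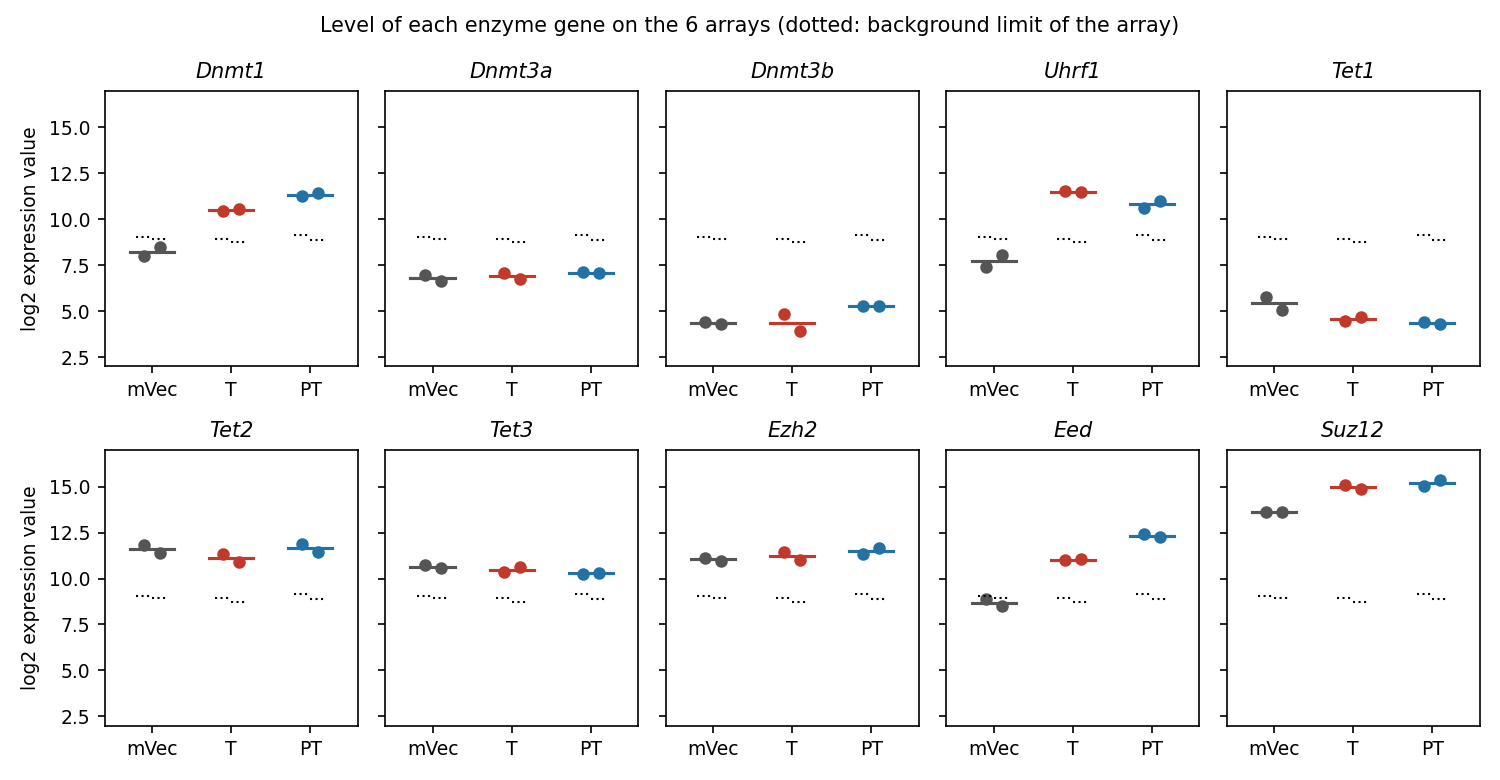
Log2 expression value of each of the 10 genes (y axis) on the 2 arrays of mVec (grey), T (red) and PT (blue). Points are arrays, solid lines are group means and dotted marks are the background limit of each array. Dnmt1, Uhrf1 and Eed lay under the limit in mVec and above it in T and PT, and Dnmt3a, Dnmt3b and Tet1 lay under it everywhere.

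Dnmt1, the methyltransferase that copies methylation after replication, had log2 levels of 7.99 and 8.50 in mVec, 10.45 and 10.54 in T, and 11.26 and 11.42 in PT. Both mVec arrays were under the limit, and the 3 groups did not overlap. In T it was higher than in mVec by at least 2.81-fold (a log2 difference of 2.25 ± 0.23, adjusted p = 4.39e-05). In PT it was at least 5.07-fold higher (3.10 ± 0.23, adjusted p = 3.77e-06). Between the Kit lines the level in PT was 1.80-fold that in T, with an adjusted p of 0.0545 (T minus PT −0.85 ± 0.23). That difference passed in 4 of 15 alternatives, so the call between T and PT rests on the setting.

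Uhrf1, the ring finger protein that recognizes half-methylated CG sites and brings in Dnmt1, had levels of 7.41 and 8.08 in mVec, 11.54 and 11.48 in T, and 10.62 and 11.01 in PT. It was at background in mVec and above it in both Kit lines, with no overlap of the groups. The difference was at least 5.68-fold in T (3.76 ± 0.27, adjusted p = 3.85e-06) and at least 3.51-fold in PT (3.07 ± 0.27, adjusted p = 1.01e-05). T and PT did not differ beyond the threshold (0.69 ± 0.27, 95% interval 0.10 to 1.29, adjusted p = 0.157). The mean was higher in T for Uhrf1 and higher in PT for Dnmt1.

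Dnmt3a, a methyltransferase that places new marks, had levels of 6.97 and 6.66 in mVec, 7.10 and 6.76 in T, and 7.12 and 7.05 in PT. All 6 arrays were under the limit, and the differences from mVec were 0.12 ± 0.22 in T (adjusted p = 0.765) and 0.27 ± 0.22 in PT (0.415). With quantile normalization the value in PT was 0.69 and was called (adjusted p = 0.0338). Dnmt3b, its relative of early development, had levels of 4.39 and 4.30 in mVec, 4.86 and 3.91 in T, and 5.26 and 5.26 in PT. The PT arrays were above the mVec arrays, and the call in PT (0.91 ± 0.29, adjusted p = 0.0359) lay wholly under the limit, where no fold is given. It was lost without either PT array, without either mVec array and when control probe sets were kept (adjusted p 0.0981 to 0.138). Filtering probe sets by background or by mean level removed Dnmt3b, so it has no call there. In T the Dnmt3b value did not pass (0.04 ± 0.29, adjusted p = 0.95). T minus PT did not pass either (−0.87 ± 0.29, adjusted p = 0.11), and it was −1.35 without T replicate 1.

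Tet1, a dioxygenase that oxidizes methylcytosine and is best known in embryonic stem cells, had levels of 5.78 and 5.07 in mVec, 4.46 and 4.68 in T, and 4.43 and 4.30 in PT. Every array was under the limit, and both mVec arrays were above the other 4. It was called lower in T (−0.85 ± 0.26, adjusted p = 0.0318) and in PT (−1.06 ± 0.26, adjusted p = 0.00953). The call in T held in 4 of 13 alternatives. It was lost without T replicate 1 (adjusted p = 0.128) or 2 (0.063), without either PT array (0.0506) and without mVec replicate 1 (0.278). The call in PT held in 11 of 13 and was lost without PT replicate 2 (0.0614) and without mVec replicate 1 (0.103).

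Tet2, the family member often mutated in blood cancers, had levels of 11.83 and 11.38 in mVec, 11.33 and 10.89 in T, and 11.90 and 11.43 in PT. All arrays were well over the limit, and PT overlapped mVec. The differences from mVec were −0.49 ± 0.27 in T (95% interval −1.09 to 0.10, adjusted p = 0.21) and 0.06 ± 0.27 in PT (−0.54 to 0.66, adjusted p = 0.905). Tet3, the form known from the oocyte and zygote, had levels of 10.73 and 10.55 in mVec, 10.33 and 10.64 in T, and 10.26 and 10.29 in PT. Its differences were −0.16 ± 0.21 in T (−0.64 to 0.31, adjusted p = 0.642) and −0.37 ± 0.21 in PT (−0.84 to 0.11, adjusted p = 0.229). Intervals of this width do not show that the levels were equal.

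**Figure D2:**
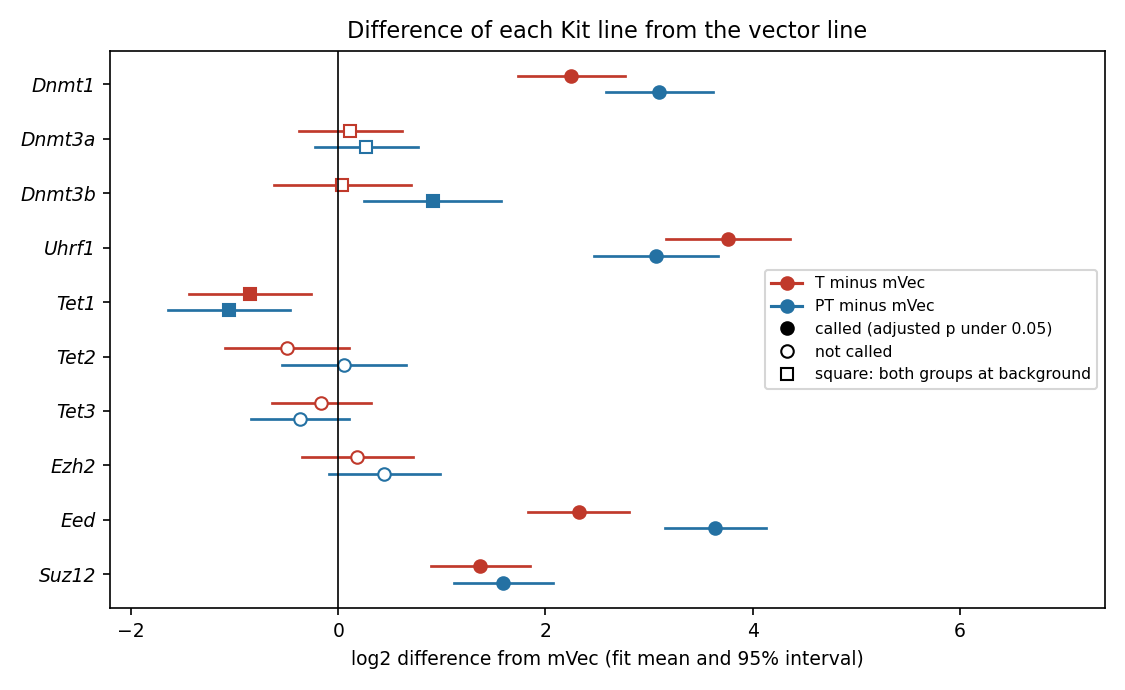
Log2 difference from mVec (x axis) of each gene in T (red) and PT (blue), with the 95% interval of the fit. Filled symbols were called and squares mark genes at background in both groups. Dnmt1, Uhrf1, Eed and Suz12 lie to the right of 0 in both lines, and the intervals of Ezh2, Tet2 and Tet3 include 0.

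Of the 3 core subunits of PRC2, Eed and Suz12 were called in both lines and Ezh2 in neither. Ezh2, the catalytic subunit, had levels of 11.13 and 10.95 in mVec, 11.46 and 10.98 in T, and 11.32 and 11.65 in PT. T overlapped mVec, and neither line passed the test: the difference was 0.18 ± 0.24 in T (95% interval −0.35 to 0.72, adjusted p = 0.643) and 0.45 ± 0.24 in PT (−0.09 to 0.98, adjusted p = 0.198). Whether Ezh2 differed from Eed or Suz12 in its response was not tested.

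Eed, the subunit that binds methylated H3 lysine 27 and stimulates the enzyme, had levels of 8.89 and 8.50 in mVec, 10.99 and 11.04 in T, and 12.41 and 12.26 in PT. It was under the limit on both mVec arrays and above it in the Kit lines, with no overlap between any groups. Its rise was at least 4.03-fold in T (2.32 ± 0.22, adjusted p = 2.39e-05) and at least 10.1-fold in PT (3.64 ± 0.22, adjusted p = 9.2e-07). Its mean in mVec (8.69) was close to the limits of those arrays (9.06 and 8.95), and with the 90th percentile as the limit Eed and Dnmt1 count as above background in mVec. Uhrf1 then exceeded the limit on 1 mVec array.

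Suz12, the scaffold that holds PRC2 together, was above background in every line, with levels of 13.60 and 13.62 in mVec, 15.08 and 14.88 in T, and 15.05 and 15.36 in PT. Both mVec arrays were below all Kit arrays, and T and PT overlapped. It was 2.58-fold higher in T (1.37 ± 0.21, adjusted p = 0.000674) and 3.02-fold higher in PT (1.59 ± 0.21, adjusted p = 2e-04). T and PT did not differ beyond their spread (−0.23 ± 0.21, 95% interval −0.70 to 0.25, adjusted p = 0.591).

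The comparison of T with PT asks whether the Kit lines differ in these genes. Of the 10 genes, limma called 0 higher in T, beside 5.67% of all probe sets, and 1 lower, Eed, beside 2.70%. At an unadjusted p under 0.05, 1 was higher and 3 were lower, and limma-trend and robust limma also called 0 higher. Eed was 2.495-fold higher in PT than in T (T minus PT −1.32 ± 0.22, adjusted p = 0.00719), and this call was lost without PT replicate 1 (adjusted p = 0.0629). The order of the levels was mVec, T, PT for Dnmt1, Eed, Ezh2 and Suz12 and mVec, PT, T for Uhrf1. It was T, mVec, PT for Tet2 and PT, T, mVec for Tet3. Of the T and PT levels next to each other in these orders, those of Eed alone differed beyond the threshold in the model of all 6 arrays.

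The other PRC2 subunits were followed from a list of 12, all measured. Counts of this and the following lists stand beside 16.9% higher and 15.5% lower over all probe sets in T. The shares in PT were 17.9% and 18.0%. In T 6 were called higher and 3 lower, and in PT 5 higher and 3 lower, with list medians of 0.63 and 0.36. The count in T fell to 3 higher without mVec replicate 2. Ezh1, the catalytic relative of Ezh2 known from cells that do not divide, was lower in both lines: 13.51 and 13.27 in mVec, 11.06 and 11.35 in T, 10.92 and 10.70 in PT. The falls were 4.55-fold in T (−2.18 ± 0.22, adjusted p = 3.77e-05) and 5.98-fold in PT (−2.58 ± 0.22, adjusted p = 8.87e-06). Of the catalytic subunits, then, Ezh1 fell and Ezh2 did not pass, and the difference between them was not tested.

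Jarid2, a subunit that helps PRC2 bind chromatin, fell from just above the limit in mVec (9.15 and 8.96) to background in T (7.34 and 7.49) and PT (6.34 and 7.21). Its differences were −1.64 ± 0.29 (adjusted p = 0.00137) and −2.28 ± 0.29 (0.000129). Aebp2, the usual partner of Jarid2, went the other way, 1.64-fold higher in T (0.71 ± 0.20, adjusted p = 0.0201) and 1.83-fold in PT (0.87 ± 0.20, 0.00604). Its call was lost in T without T replicate 2, mVec replicate 1 or mVec replicate 2, and in PT without mVec replicate 2.

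Among the Polycomb-like proteins, which tether PRC2 to CG-rich DNA, Mtf2 and Phf19 rose and Phf1 fell. Mtf2 was 1.79-fold higher in T (0.84 ± 0.23, adjusted p = 0.0189) and 2.58-fold in PT (1.37 ± 0.23, adjusted p = 0.000984), and its call in T was lost without T replicate 1 and without mVec replicate 2. Phf19 had levels of 5.90 and 6.19 in mVec, 7.72 and 7.42 in T, and 8.68 and 9.21 in PT, with 1 PT array above the limit. The difference was 1.53 ± 0.25 in T and 2.90 ± 0.25 in PT. Phf1 was under the limit on all arrays (−1.11 ± 0.20 in T and −1.34 ± 0.20 in PT).

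The histone-binding subunit Rbbp7 was 1.94-fold higher in T (0.96 ± 0.20, adjusted p = 0.00417) and 1.78-fold in PT (0.83 ± 0.20, 0.00824, lost without mVec replicate 1). Its paralog Rbbp4 did not pass in either line (0.55 ± 0.21 and −0.22 ± 0.21). Lcor, whose locus also encodes a PRC2 subunit, was 1.92-fold and 1.97-fold higher. Lcorl was called in T (0.80 ± 0.21, adjusted p = 0.0151, lost without T replicate 2 and without mVec replicate 2). Epop and Ezhip were at background in all lines.

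**Figure D3:**
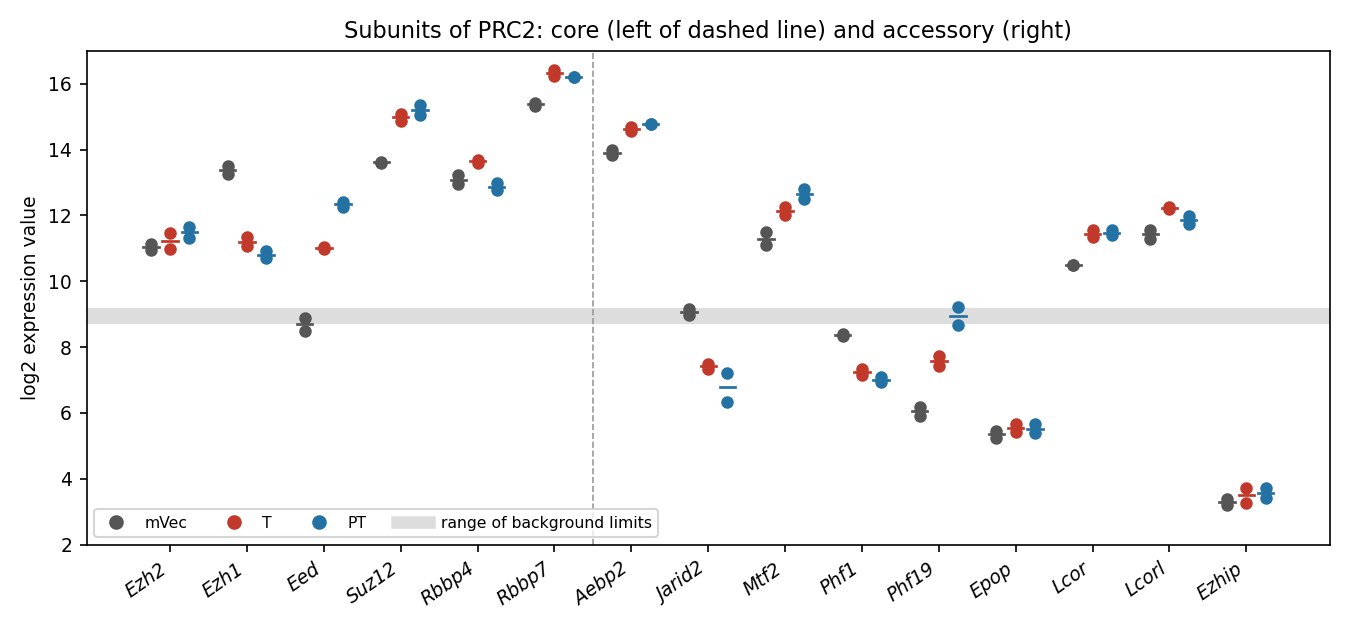
Log2 expression value (y axis) of the core and accessory PRC2 subunits on the 2 arrays of mVec (grey), T (red) and PT (blue), with short lines for group means and a grey band for the range of background limits. Eed, Suz12 and Phf19 are higher in the Kit lines, and Ezh1, Jarid2 and Phf1 are lower. Heights are not comparable between genes, because probe sets respond differently.

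Several partners of DNA methylation were higher too. Of 12 measured writers and maintenance partners, limma called 7 higher in T and 5 in PT, and 0 lower in either (1 and 0 at an unadjusted p under 0.05), with medians of 0.87 and 0.52. Hells, the remodelling enzyme that opens heterochromatin for methylation, had levels of 9.78 and 9.15 in mVec, 12.75 and 11.85 in T, and 13.43 and 13.45 in PT. It was 7.10-fold higher in T (2.83 ± 0.32, adjusted p = 8.42e-05) and 15.7-fold in PT (3.97 ± 0.32, adjusted p = 6.22e-06). Cdca7, which recruits Hells to chromatin, was at background in mVec and at least 4.92-fold higher in T (4.57 ± 0.38) and at least 6.68-fold in PT (5.01 ± 0.38). Cdca7l was called in T (0.97 ± 0.25, adjusted p = 0.014, lost without T replicate 2 and without mVec replicate 1).

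Usp7, a deubiquitinase that stabilizes Uhrf1 and Dnmt1, was 1.97-fold higher in T (0.97 ± 0.20, adjusted p = 0.00365) and 2.34-fold in PT (1.23 ± 0.20, adjusted p = 0.000726). Pcna, the sliding clamp that Dnmt1 rides on, was 1.71-fold and 1.72-fold higher, and the calls were lost without mVec replicate 2, in T also without T replicate 1 and in PT without PT replicate 1. Zfp57, a zinc finger protein that keeps methylation at imprinted loci, was at least 2.70-fold and at least 1.57-fold higher. Dnmt3l, the catalytically inactive cofactor of Dnmt3a in germ cells, was under the limit on every array, yet called in T (2.77 ± 0.21) and above PT as well (T minus PT 2.20 ± 0.21, adjusted p = 0.000868). Uhrf2, Trim28, Trdmt1, Lig1 and Dppa3 did not pass against mVec.

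The 6 measured readers of methylated DNA gave 0 higher limma calls (2 at an unadjusted p under 0.05) and 1 lower in T, and 2 higher and 1 lower in PT. Zbtb4, a zinc finger repressor that binds methylated sites, was lower in T (−2.41 ± 0.23, adjusted p = 2.54e-05) and in PT (−3.05 ± 0.23, adjusted p = 3.78e-06), from levels of 8.86 and 9.18 in mVec, of which 1 was above the limit. Mbd1 (0.79 ± 0.21) and Mbd3 (0.89 ± 0.24) were called in PT, and both calls were lost without PT replicate 2 and without mVec replicate 2, Mbd1 also without PT replicate 1 and Mbd3 without mVec replicate 1. Mbd2 and Mbd4 did not pass, and Zbtb33 differed only between the Kit lines (T minus PT 1.01 ± 0.20, adjusted p = 0.0169, lost without T replicate 2, PT replicate 1 or PT replicate 2).

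From the list of active demethylation and Tet partners 10 genes were measured, 2 of them called higher and 1 lower in T, and 1 higher and 2 lower in PT. The 2 lower in PT became 1 without PT replicate 1, mVec replicate 1 or mVec replicate 2. Cxxc5, a CXXC domain protein that binds Tet2, was above background in mVec (11.48 and 11.62) and at background in both Kit lines. Its fall was at least 6.58-fold in T (−3.39 ± 0.22, adjusted p = 2.14e-06) and at least 5.81-fold in PT (−4.10 ± 0.22, adjusted p = 4.66e-07). Gadd45a, a stress protein linked to repair-based demethylation, was 2.96-fold higher in T and 1.84-fold in PT (lost without mVec replicate 2). Gadd45b was called in T (2.28 ± 0.22) and not in PT (0.29 ± 0.22), and T and PT differed by 1.99 ± 0.22 (adjusted p = 0.0016).

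S-adenosylmethionine supplies the methyl group for both systems. Of 10 measured genes of its cycle, limma called 3 higher and 0 lower in T (1 lower at an unadjusted p under 0.05), and 3 higher and 2 lower in PT (1 lower without PT replicate 1 or mVec replicate 1). Ahcy, which clears the inhibitory product of methyl transfer, was 10.4-fold higher in T (3.38 ± 0.21, adjusted p = 1.83e-06) and 6.67-fold in PT (2.74 ± 0.21, adjusted p = 4.8e-06). Mtrr, which reactivates methionine synthase, was at least 2.16-fold and at least 2.96-fold higher. Mat2b, a regulatory subunit of the synthesizing enzyme, was 3.84-fold lower in PT (−1.94 ± 0.22) and did not pass in T (−0.58 ± 0.22).

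Tet enzymes and histone demethylases need 2-oxoglutarate. Of 12 measured genes that supply or use it, 6 were called higher in T and 3 lower (3 higher without mVec replicate 1, and 3 without mVec replicate 2), and 4 higher and 3 lower in PT. Got1, the cytosolic aspartate aminotransferase, was 42.9-fold higher in T (5.42 ± 0.21, adjusted p = 1.21e-07) and 36.3-fold in PT (5.18 ± 0.21, adjusted p = 1.05e-07). Idh1, the cytosolic isocitrate dehydrogenase, fell 2.74-fold in T and at least 7.82-fold in PT, and its mitochondrial relative Idh2 was 3.07-fold and 3.41-fold lower. Idh3a, of the citric acid cycle, was 3.58-fold and 4.08-fold higher.

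The H3 lysine 27 demethylases and acetylases gave 0 higher and 1 lower limma call among 5 genes in T and 0 calls in PT (0 higher and 2 lower in T, and 0 and 1 in PT, at an unadjusted p under 0.05). With limma-trend 2 were lower in T and 1 in PT, and with robust limma 0 in both. The call was Kdm6a, a demethylase of that mark (−0.74 ± 0.25, adjusted p = 0.05, just under the threshold), and it was lost without T replicate 2, mVec replicate 1 or mVec replicate 2. Its value in PT was −0.72 ± 0.25 (adjusted p = 0.0536). Kdm6b, Ep300 and Crebbp did not pass in either line, and Uty was at background on all arrays. The count lower in PT was 1 without T replicate 1, T replicate 2 or PT replicate 1.

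PRC1, the complex that ubiquitinates histone H2A at Polycomb targets, had 21 measured subunits. In T 3 were higher and 3 lower, beside 16.9% and 15.5% of all probe sets. In PT 4 were higher and 8 lower, beside 17.9% and 18.0%. Of the lower calls, 1 in T and 3 in PT had both groups at background, as had 1 of the higher calls in T. The count of 8 fell without PT replicate 1 or mVec replicate 1. It was 5 with arrays centred on their median, 5 with probe sets above background in at least 1 line and 4 with control probe sets kept. The variant subunit Pcgf6 was 11.2-fold higher in T (3.49 ± 0.22, adjusted p = 1.99e-06) and 22.6-fold in PT (4.50 ± 0.22, adjusted p = 3.1e-07). L3mbtl2, which works with Pcgf6, was at background in mVec and T and at least 1.91-fold higher in PT than in mVec (3.43 ± 0.21). Phc1, of the canonical form, was lower by at least 2.13-fold in T and by at least 1.88-fold in PT. In the Polycomb deubiquitinase list of 7, 4 were higher and 1 lower in T, and 3 higher and 1 lower in PT, with Foxk2 3.10-fold and 4.91-fold higher and Foxk1 2.45-fold and 1.87-fold lower. The count of 4 fell to 1 without T replicate 2, to 1 without mVec replicate 1 and to 2 without mVec replicate 2.

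Other histone methyltransferases also moved both ways. Of 8 enzymes for H3 lysine 36 and lysine 9, 3 were higher and 1 lower in T, and 2 higher and 1 lower in PT. Suv39h2, a lysine 9 enzyme of heterochromatin, was at background in mVec and at least 3.45-fold higher in T (4.59 ± 0.31) and at least 11.4-fold in PT (6.31 ± 0.31). Nsd2, a lysine 36 enzyme, was 4.12-fold and 6.17-fold higher, while its relative Nsd1 was 1.86-fold and 3.49-fold lower (in T lost without mVec replicate 2). Of 11 genes of the H3 lysine 4 complexes, which oppose Polycomb, limma called 5 higher and 0 lower in T (also 0 at an unadjusted p under 0.05), and 6 higher and 1 lower in PT (0 lower without PT replicate 1). Their shared core subunit Wdr5 was 11.2-fold higher in T (3.49 ± 0.23, adjusted p = 2.55e-06) and 13.7-fold in PT (3.77 ± 0.23, adjusted p = 1.08e-06).

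Genes that Polycomb or DNA methylation is known to silence were mostly at background. So were most gene probe sets, of which 29.0% to 32.6% were above the limit per array. Of 33 measured HOX cluster genes, 32 lay at background both in mVec and in the Kit line it was compared with. The exception in T was Hoxb9, with levels of 6.37 and 6.38 in mVec, 9.91 and 9.99 in T, and 8.85 and 9.35 in PT. Its rise in T was at least 1.93-fold (3.58 ± 0.23, adjusted p = 1.97e-06), and in PT 1 array was above the limit (2.72 ± 0.23, adjusted p = 7.84e-06). Hoxa5 was called in both lines under the limit (in PT lost without PT replicate 1 and without mVec replicate 1), and limma called 0 HOX genes lower in either line (also 0 at an unadjusted p under 0.05). As 0 HOX genes were above background in mVec, a fall there could hardly be seen.

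Of 36 developmental regulators outside the HOX clusters, 4 were higher and 5 lower in T, beside 16.9% and 15.5% of all probe sets. In PT 3 were higher and 5 lower, beside 17.9% and 18.0%. In both comparisons 31 were at background in mVec and in the Kit line alike. In each line 2 of the higher calls and 4 of the lower calls had both groups at background. With only probe sets above background in at least 1 line, 2 were higher and 2 lower in T, and 1 higher and 1 lower in PT. The 5 lower in T became 3 without T replicate 2 and 2 without mVec replicate 2. Foxc1, a forkhead factor of the mesenchyme, was above background in every line, 9.74-fold lower in T (−3.28 ± 0.22, adjusted p = 2.73e-06) and 11.3-fold lower in PT (−3.50 ± 0.22, adjusted p = 1.24e-06). Gata2 was 2.74-fold higher in T (1.46 ± 0.23, adjusted p = 0.000728), and its call in PT was lost without any 1 of the PT or mVec arrays. Of 29 germline genes that somatic cells methylate, 28 lay at background likewise. In T 1 was called higher, beside 16.9% of all probe sets. In PT 3 were called higher and 3 lower, beside 17.9% and 18.0%. Each call had both groups at background. The count in T was 3 without T replicate 1 and 0 without T replicate 2 or either mVec array. Both counts in PT fell to 0 or 1 without any 1 of the PT or mVec arrays.

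Of 8 genes that restrict endogenous retroviruses, a target of DNA and lysine 9 methylation, 3 were higher and 2 lower in each line. Over all probe sets 16.9% were higher and 15.5% lower in T, and 17.9% and 18.0% in PT. The 2 lower in T became 1 without T replicate 1, 0 without T replicate 2 and 0 without mVec replicate 1. Tasor, the assembly subunit of the HUSH complex, was 4.10-fold higher in T (2.04 ± 0.23, adjusted p = 7.68e-05) and 6.14-fold in PT (2.62 ± 0.23, adjusted p = 1.03e-05). Atf7ip, which stabilizes Setdb1, was 1.96-fold lower in T (lost without T replicate 2 and without mVec replicate 1) and 2.58-fold lower in PT. Zfp809, a zinc finger protein that silences retroviruses, was 1.80-fold lower in T and 2.80-fold in PT, and its call in T was lost without T replicate 1 (adjusted p = 0.0536), T replicate 2 (0.101) or mVec replicate 1 (0.172).

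Genes of cell division were higher in both Kit lines too. Of 22 measured genes of DNA replication and S phase, limma called 19 higher and 0 lower in each line (also 0 lower at an unadjusted p under 0.05), with medians of 2.44 in T and 3.14 in PT. All 21 mitosis genes were called higher in each line (20 or more in every alternative), with medians of 2.85 and 3.99. The mean log2 level of the mitosis list was 8.19 to 8.32 in mVec, 11.06 to 11.11 in T and 12.27 to 12.33 in PT. That order, mVec, T, PT, was also that of the means of Dnmt1, Eed, Ezh2 and Suz12, of which Eed alone passed between T and PT, and Uhrf1 ran mVec, PT, T. Among 13 E2F and Rb family genes, 10 were called higher in T and 1 lower, beside 16.9% and 15.5% of all probe sets. In PT 9 were higher and 2 lower, beside 17.9% and 18.0%. Of the higher calls, 3 in T and 2 in PT had both groups at background. With control probe sets kept, E2f1 and E2f6 did not pass in T (limma adjusted p = 0.0909 and 0.0789), nor E2f2 in PT (0.0638). The E2f1 call in T was lost without T replicate 2, where its difference went from 1.28 to 0.68, and without either mVec array. That of E2f6 in T was lost without any 1 of the 6 arrays, and in PT without PT replicate 2 or mVec replicate 2. E2f2 lost its call in T without T replicate 1 or mVec replicate 2, and in PT without either PT array or mVec replicate 2. E2f4 was 7.01-fold and 10.0-fold higher, and the E2F partner Tfdp1 4.22-fold and 4.94-fold. Whether division differs between the lines and what part it has in the levels of the 10 genes was not tested.

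**Figure D4:**
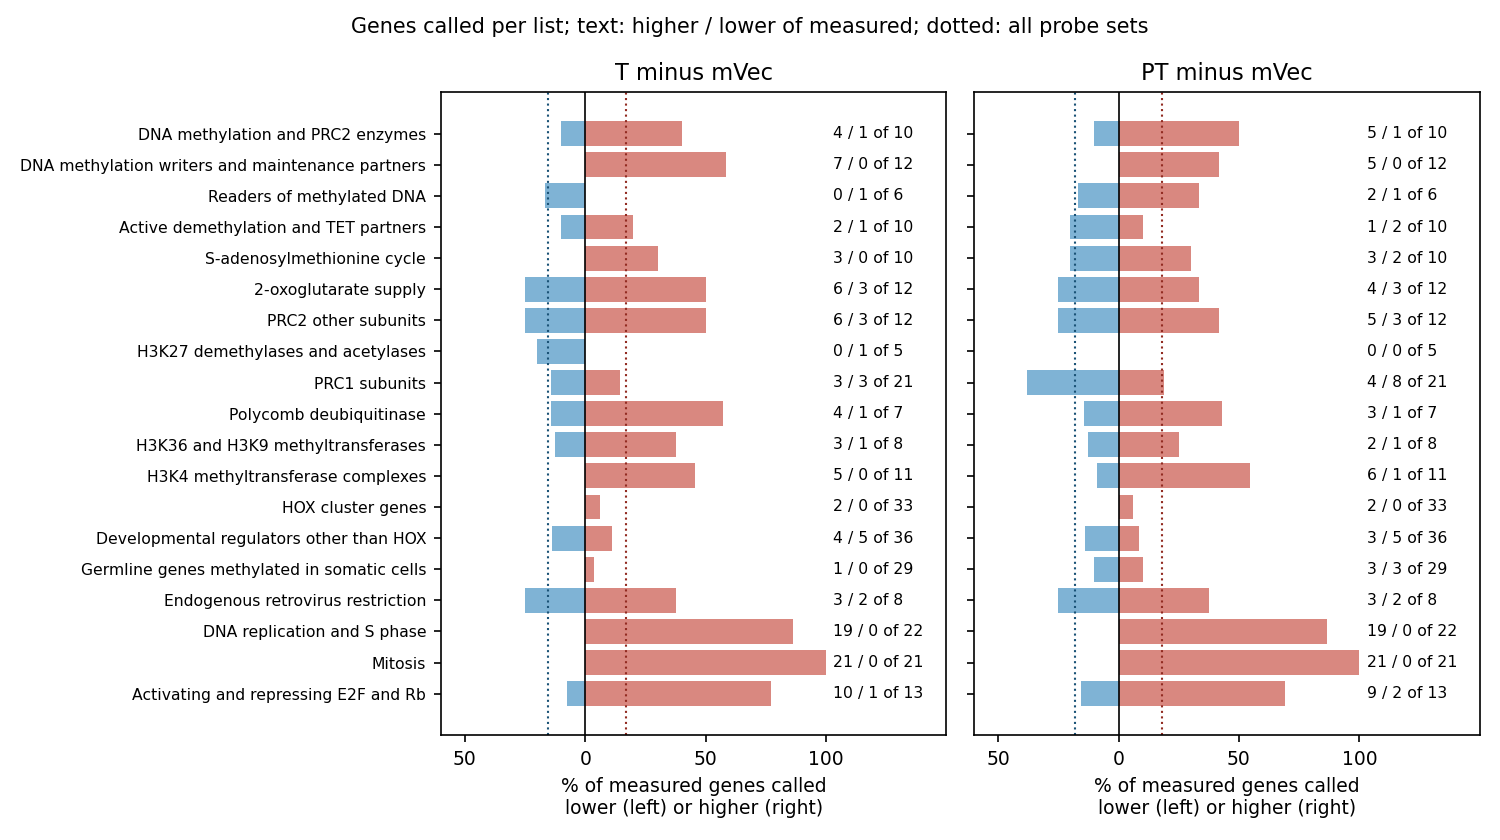
Share of the measured genes of each list called higher (right, red) or lower (left, blue) than mVec in T and in PT, with the counts printed beside each bar and dotted lines at the share over all probe sets. In the mitosis list 21 of 21 genes were higher in both lines, in the 10 DNA methylation and PRC2 enzymes 4 and 5, and in the HOX list 2 of 33.

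For each member that was called and above background in a line, the 3 most similar genes were found by Euclidean distance over the 6 arrays, after subtracting the mVec mean, among 7004 genes above background in at least 1 line. Dnmt1, Uhrf1 and Eed were at background in mVec, so their distances rest on differences from a level under the limit and are a description of these values. A gene at background in every line could not be found. Nearest to Dnmt1 were Mrpl3 (distance 0.31), Trmt10c (0.32) and Pabpc4 (0.39). For Uhrf1 they were Slc43a3 (0.50), Gemin6 (0.61) and Dennd4a (0.64), and for Eed Zfp948 (0.30), Rassf1 (0.33) and Rrp15 (0.41). Those of Suz12 were Ube2f (0.13), Eftud2 (0.15) and Cdkn2aip (0.20).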

How the data were processed

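The values used are log2 levels as the authors deposited them, 1 for each probe set on each array. The software, normalization and genome build behind them were not given in the sources used here. That they are log2 follows from their range. Of 28846 rows, 22206 gene probe sets were tested and 6640 control rows left out. Of the gene probe sets, 19572 carry 1 symbol.

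With R 4.3.3 and limma 3.58.1, all 6 arrays entered 1 model with a mean per line, without a filter (3 residual and 6.36 prior degrees of freedom). P-values are two-sided and adjusted by the Benjamini-Hochberg method within each comparison. The script was tested on simulated data with few changed probe sets, where it missed nearly all of the smaller changes and some of the larger. A gene that did not pass can therefore still differ. The number of arrays limits precision. The check of equal replicate numbers gave no pairing.

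The members and the 18 lists (272 of 301 genes measured) were chosen with earlier results of these data known. Named are all members, every gene of 4 lists, and the 3 nearest genes per member that was called and above background in a line. Of the other lists, only part of the up to 5 called genes with the largest difference from mVec are named. A named gene therefore need not have the largest difference. Pcgf5, Scmh1, Tbx3, Six2 and Eomes were left out, for example, and the mitosis list was given as counts and levels. Other genes were named after their values were seen.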

Additional observations from a re-analysis of the deposited data

Results flagged for a closer look

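Eed differed between the Kit lines: T minus PT was −1.32 ± 0.22 (limma adjusted p = 0.00719), with levels of 10.99 and 11.04 in T and 12.41 and 12.26 in PT. This is a test of the difference itself. The call held in 14 of 15 alternatives and was lost without PT replicate 1 (adjusted p = 0.0629).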

How the results depend on the processing

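In all, 15 alternatives were run. The difference of T from PT was called lower for 2 members (Dnmt1 joined Eed) with limma-trend (adjusted p = 0.0341), with probe sets above background in at least 1 line (0.0142), with probe sets above the median mean (0.0238) and with the replicate block (0.0485). The count lower in T than in mVec was 0 with only the 2 groups compared, with arrays centred on their median and with quantile normalization. It was also 0 with control probe sets kept and with both filters, which removed Tet1 and Dnmt3b. The count lower in PT was 0 with both filters. Leaving out single arrays gave 0 to 1 lower in T, 0 to 1 lower in PT and 0 to 2 for T against PT. With the limit at the 99th percentile 1 member, Suz12, was above background in mVec, 1 in T and 1 in PT. Signs turned for Tet3 in T with arrays centred on their median (0.021) and Tet2 in PT with quantile normalization (−0.10). Leaving out single arrays turned the sign of 5 values that were not called: Dnmt3a in T (−0.050 to 0.28), Dnmt3b in T (−0.44 to 0.52), Ezh2 in T (−0.056 to 0.42), Tet2 in PT (−0.18 to 0.30) and Dnmt3a in T against PT (−0.32 to 0.012). Dnmt3a was called in PT with quantile normalization (0.69, adjusted p = 0.0338). Equal replicate numbers did not deviate together (r = 0.0428, 0.0396 and 0.0823 for the 3 pairs of lines), so the block is no pairing, and it changed no other member call. The alternative with another probe set per member could not be run, since each member has 1. The cause of these changes was not tested.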
